A study of Mus musculus with 9 samples.

Results

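The genes described are 40 mouse genes of meiosis and the germline, chosen by name for their roles, out of 21887 protein-coding genes on the main chromosomes. They are followed through 5 lists of genomic intervals from ChIP-seq, which sequences the DNA that an antibody pulls down together with its protein. The antibody was raised against KDM6A, a demethylase of lysine 27 of histone H3. The cells were Sv129 mouse embryonic stem cells, a line kept in serum with leukemia inhibitory factor on gelatin, and 9 samples were labelled. KDM6A was profiled in 2 control libraries, with the genotype label WT, and in 2 libraries of cells with the genotype label folate deficiency, given 0.12 µM MTX for 24 h. The same MTX protocol and the treatment label neurodevelopment stand on every sample, so controls are told apart by title and genotype label. The only IgG library, made with a nonspecific antibody, came from MTX cells, and 4 inputs gave no list used here. The labels name no separate cultures, and p-values then measure only the spread between these libraries, which may be technical. An interval belonged to a gene when it overlapped the gene's RefSeq span or the 5 kb on either side (build mm10). Intervals measure no RNA, so the cell type label was not checked by expression; of 6 markers of embryonic stem cells, 5, 2, 5 and 2 had an interval in control 1, control 2, MTX 1 and MTX 2 and 4 had one in IgG, where genes of like length had one at 37.8, 19.0, 26.6, 22.0 and 21.0%.

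Meiosis pairs homologous chromosomes along the synaptonemal complex, a protein zipper built on axes of meiotic cohesin, while programmed DNA breaks are repaired into crossovers. Germ cells also keep transposons silent with PIWI proteins and their small piRNAs, together with Tudor-domain proteins and RNA helicases. Most of these genes are kept silent in somatic cells, and in embryonic stem cells many are held down by DNA methylation and by a Polycomb complex with PCGF6, MGA and E2F6 that recognises E-boxes and E2F sites in their promoters.

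The promoters of these genes are shown first, because that recognition is a matter of sequence. RefSeq start sites (GRCm38.p6) were found for 35 of the 40 genes, and the 250 bases before each start were searched on both strands for the E2F6 core TCCCGC and the E-box CACGTG, which do not overlap each other. The E2F6 core was present at 15 of the 35 genes (42.9%), beside 24.2% of 17492 genes with a promoter, and the E-box at 14 (40%), beside 7.61%. Member promoters held a median of 16 CpG pairs and 60.6% G and C, beside 10 and 55.6% over all promoters. A match is a description of the letters and not a measured binding site. The sequences below are those of 6 genes whose promoter both held a motif (in capitals) and lay under a KDM6A interval. They are printed 5′ to 3′ on the strand of the gene.

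Hormad1, chr3:95559427-95559676, plus strand: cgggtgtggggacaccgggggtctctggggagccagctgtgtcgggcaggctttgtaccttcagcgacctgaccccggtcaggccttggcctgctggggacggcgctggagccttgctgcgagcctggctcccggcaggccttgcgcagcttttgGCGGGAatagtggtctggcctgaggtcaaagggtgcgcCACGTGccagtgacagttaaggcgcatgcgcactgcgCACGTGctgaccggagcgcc
Syce2, chr8:84872008-84872257, plus strand: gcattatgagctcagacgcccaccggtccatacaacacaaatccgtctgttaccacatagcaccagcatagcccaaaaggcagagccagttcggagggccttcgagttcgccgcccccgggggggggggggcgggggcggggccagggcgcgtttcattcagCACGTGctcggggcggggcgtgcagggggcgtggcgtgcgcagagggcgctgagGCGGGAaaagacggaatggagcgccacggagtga
Sycp1, chr3:102936101-102936350, minus strand: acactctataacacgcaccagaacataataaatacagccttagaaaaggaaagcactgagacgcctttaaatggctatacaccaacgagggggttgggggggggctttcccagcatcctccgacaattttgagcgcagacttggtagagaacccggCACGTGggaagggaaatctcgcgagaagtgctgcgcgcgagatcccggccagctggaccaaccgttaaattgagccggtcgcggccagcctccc
Rnf212, chr5:108775028-108775277, minus strand: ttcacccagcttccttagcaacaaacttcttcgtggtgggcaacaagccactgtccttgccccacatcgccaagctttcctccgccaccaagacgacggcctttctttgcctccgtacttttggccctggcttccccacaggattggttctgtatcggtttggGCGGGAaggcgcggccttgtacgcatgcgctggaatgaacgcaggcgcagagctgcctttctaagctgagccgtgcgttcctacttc
Tdrd5, chr1:156303349-156303598, minus strand: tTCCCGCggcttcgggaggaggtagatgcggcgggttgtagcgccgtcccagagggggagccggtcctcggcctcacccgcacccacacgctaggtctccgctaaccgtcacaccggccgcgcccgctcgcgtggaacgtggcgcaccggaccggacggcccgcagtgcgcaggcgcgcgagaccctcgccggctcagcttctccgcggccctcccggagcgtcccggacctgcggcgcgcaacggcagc
Tex14, chr11:87404815-87405064, plus strand: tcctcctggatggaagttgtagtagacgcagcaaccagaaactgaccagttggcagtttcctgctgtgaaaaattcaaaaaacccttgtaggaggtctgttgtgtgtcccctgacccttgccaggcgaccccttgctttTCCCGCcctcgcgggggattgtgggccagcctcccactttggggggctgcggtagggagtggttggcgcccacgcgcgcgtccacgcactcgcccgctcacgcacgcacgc

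KDM6A intervals at these promoters were not repeated between libraries, and such repeats were rare at promoters in general. Of the 35 genes, 11 (31.4%) had a promoter under an interval of at least 1 KDM6A library, beside 19.5% of all genes with a promoter, and 0 had one in 2 or more KDM6A libraries, beside 3.91%. The intervals were those of control 1 at Hormad1, Tex14, Hfm1, Mlh3 and Msh4, control 2 at Rnf212 and at a downstream start of Tdrd1, MTX 1 at Syce2, Sycp1 and Hormad2, and MTX 2 at Tdrd5. Their folds over background were low. At Syce2, which encodes a central element protein of the synaptonemal complex, 141 reads stood against 92 in the background (fold 1.64, chr8:84871601-84875800). At Hormad1, which encodes a HORMA-domain protein of the chromosome axis, 98 reads stood against 84 (fold 1.54), and at Tdrd5, a Tudor protein gene, 209 against 199 (fold 1.18). The fold is the ratio deposited with each interval, immunoprecipitated over background reads times 1 constant per library for depth. IgG had an interval over the promoters of Rnf212 (fold 1.18, 140 against 123 reads) and Tdrd1 (130 against 123 reads).

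Counted over whole gene windows, the share of meiosis and germline genes with an interval was above that of like-length genes in each of the 5 libraries, IgG included. In most of them the gap was within counting error at the settings used here. Control 1 had an interval at 30 of the 40 genes (75.0%, exact 95% interval 58.8 to 87.3%), control 2 at 26 (65.0%, 48.3 to 79.4%), MTX 1 at 22 (55.0%, 38.5 to 70.7%), MTX 2 at 21 (52.5%, 36.1 to 68.5%) and IgG at 18 (45%, 29.3 to 61.5%). Over all protein-coding genes the shares in the same order were 47.1, 26.1, 33.5, 30.8 and 27.5%. The member genes are long, with a median span of 41.8 kb beside 17.2 kb for all genes, and a long window meets more intervals. Other protein-coding genes up to 25% longer or 20% shorter than each member (835 to 2751 genes per member) had mean shares of 59.0, 33.2, 42.2, 40 and 34.1%. The members therefore stood 16.0 points above like-length genes in control 1, 31.8 in control 2, 12.8 in MTX 1, 12.5 in MTX 2 and 10.9 in IgG. At these settings the exact interval lay above the like-length share in control 2 and contained it in control 1, MTX 1, MTX 2 and IgG. Other settings changed which libraries lay above it, as given at the end. Over whole genes control 2 did at every setting tried and IgG at none. The exact intervals (Clopper-Pearson) cover counting error only and treat the 40 genes, chosen by name, as independent draws. They serve as a description, and no test of the difference was made.

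**Figure D1:**
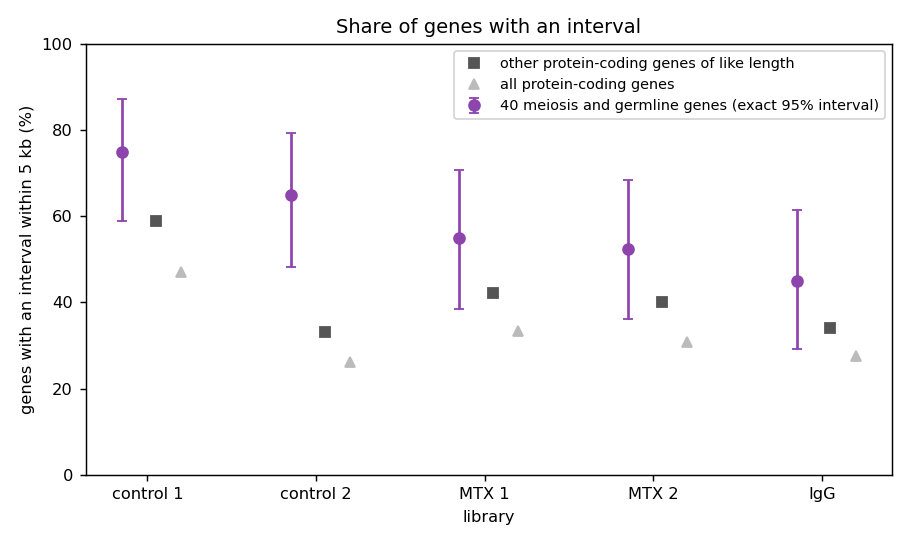
Share of genes (%, vertical axis) with an interval within 5 kb in each library (horizontal axis), for the 40 meiosis and germline genes (circles, bars are exact 95% intervals), other protein-coding genes of like length (squares) and all protein-coding genes (triangles). The circles lie above the squares in all 5 libraries, by 31.8 points in control 2 and by 10.9 points in IgG.

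The number of member genes with an interval was 28.0 ± 2.83 in control and 21.5 ± 0.71 in MTX libraries (SD, n = 2; exact permutation test, two-sided, p = 0.33, the smallest that 2 libraries against 2 can give). Lists also differed in length over the whole genome, from 21228 intervals in control 2 to 44838 in control 1, with 24177 in MTX 1, 28976 in MTX 2 and 22843 in IgG. Cut to the length of the shortest list, control 1 had 19 of the 40 genes, control 2 had 26, MTX 1 had 20 and MTX 2 had 17, so that control 1 no longer stood above MTX 1.

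The intervals were broad and shallow. Where MTX 1 and IgG had identical intervals, 52 of 52 carried the same background count. The 40 windows held 94 and 67 intervals in control 1 and 2, 49 and 70 in MTX 1 and 2 and 52 in IgG, with a median of 86.5 to 135 immunoprecipitated reads each. Median folds were 1.44 and 1.36 in control, 1.44 and 1.30 in MTX and 1.36 in IgG, beside 1.52, 1.35, 1.37, 1.42 and 1.40 for the intervals at all protein-coding genes. A deposited adjusted p under 0.05 (Poisson) was listed for 231 of the 280 KDM6A intervals, and 18 had a fold below 1. By library the p threshold was passed by 80.9 and 79.1% in control 1 and 2 and 89.8 and 82.9% in MTX 1 and 2. Of the intervals at all genes, 80.9, 75.1, 74.6 and 79.2% passed it. Over each whole list, 4.03, 7.03, 6.79 and 5.33% of intervals had a fold below 1. Of the 280, 227 (81.1%) lay inside the gene away from its ends, 37 within 1 kb of an end of the span and 16 in the flank alone. Where the strand was known, 12 of those at an end were at the start of the gene and 20 at its 3′ end. The same split was not counted for intervals at all genes. IgG overlapped 34.0 and 40.3% of the member intervals in control 1 and 2 and 40.8 and 47.1% in MTX 1 and 2, beside 20.1, 27.2, 26.4 and 25.4% of the intervals at all genes. Without Hormad2, the gene with the most intervals, the member shares were 29.6, 32.1, 34.1 and 39.7%. The windows of 28 member genes also took in a part of another protein-coding gene, so an interval there belongs to more than 1 gene.

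**Figure D2:**
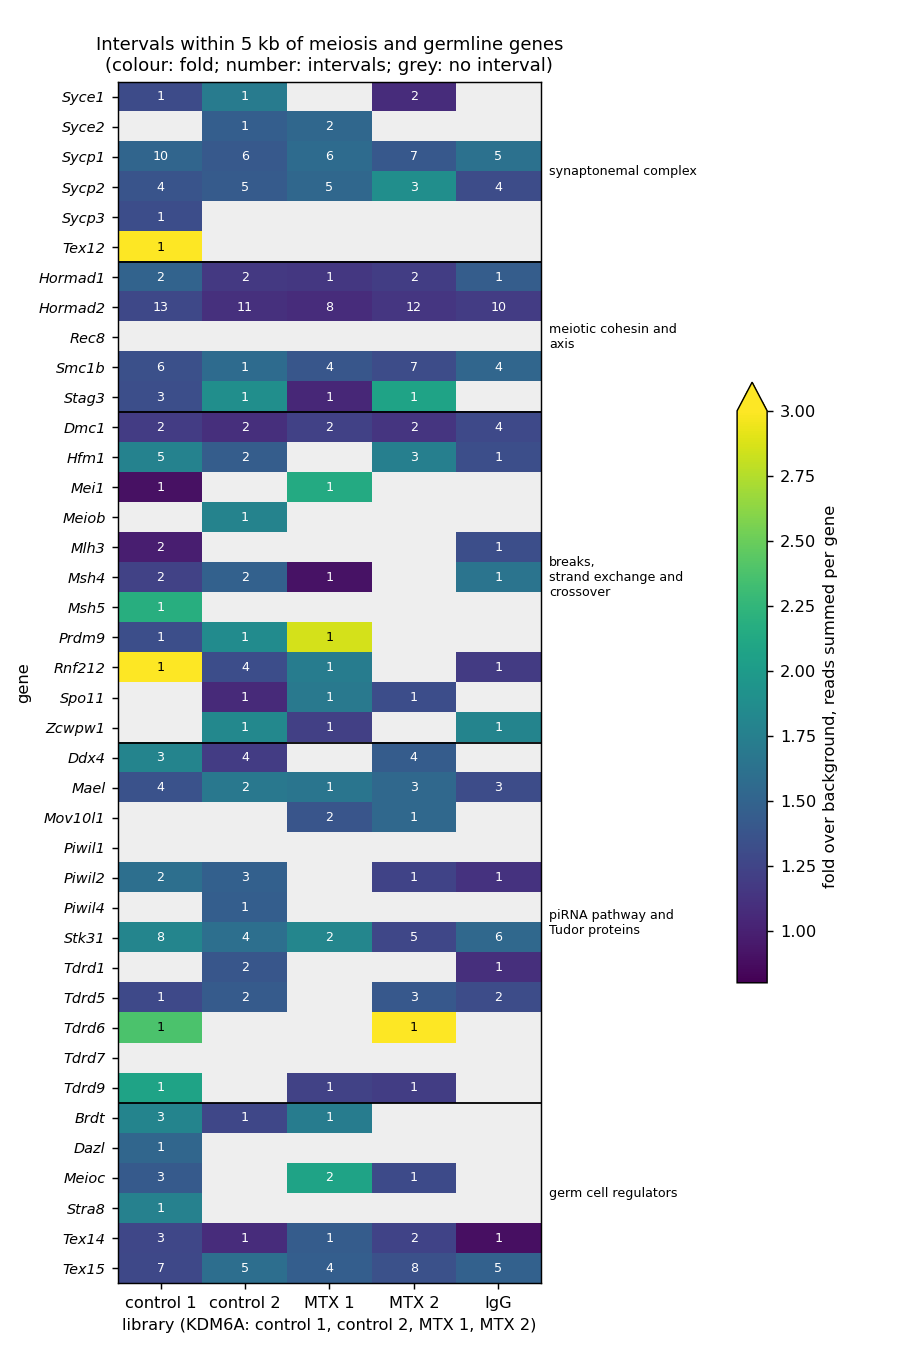
Each row is 1 of the 40 genes, grouped by role, and each column a library; colour gives the fold of immunoprecipitated over background reads summed over the gene's intervals, the printed number counts the intervals, and grey marks genes with no interval. Hormad2 has 8 to 13 intervals in every library, and the highest summed folds (Tdrd6 in MTX 2, Tex12 and Rnf212 in control 1) come from genes with 1 interval there.

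By gene, 11 of the 40 had an interval in all 4 KDM6A libraries, beside 13.2% of all protein-coding genes and 17.3% of like-length genes, 12 had one in 3 libraries, 5 in 2, 9 in 1 and 3 in none. Those with none were Rec8, a cohesin subunit of meiosis, Piwil1, a PIWI protein of the testis, and Tdrd7, a Tudor protein, and IgG also had none there. Of the 11 genes, 10 also had an IgG interval in the window and 1, Stag3, did not. How many of all genes with an interval in all 4 KDM6A libraries had one in IgG was not counted.

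Among the synaptonemal complex genes, Sycp1 and Sycp2, the longest of the 6, had intervals in every library, and the other 4 genes in 1 to 3 of the KDM6A libraries. Sycp1, which encodes the transverse filament that joins the paired axes, had 10 and 6 intervals in control 1 and 2, 6 and 7 in MTX 1 and 2 and 5 in IgG. Its summed folds were 1.51 and 1.42 in control, 1.57 and 1.41 in MTX and 1.62 in IgG, so IgG was the highest of the 5. Sycp2, which encodes an axial element protein, had 4, 5, 5 and 3 intervals with control folds of 1.37 and 1.43, MTX folds of 1.53 and 1.89 and an IgG fold of 1.31. The MTX values at Sycp2 were both above the control values, with a control mean of 1.40 ± 0.04 and an MTX mean of 1.71 ± 0.25 (SD, n = 2). Syce1, a central element gene, had intervals in 3 libraries (fold 1.30 in control 1, 1.71 in control 2, 1.08 in MTX 2), and Syce2 in control 2 and MTX 1 (1.46 and 1.54). Sycp3, the partner of SYCP2 in the axis, had 1 interval at its 3′ end in control 1 (fold 1.32, 79 against 79 reads). Tex12, a central element gene and the shortest member at 4.1 kb, had 1 in control 1 at chr9:50556401-50557200, 800 bp wide, with 37 reads against 13.

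Of the meiotic cohesin and axis genes, 4 of 5 had intervals in all 4 KDM6A libraries. Hormad2, a HORMA-domain gene on chromosome 11 (chr11:4345801-4441198), stood apart in number: 13 and 11 intervals in control, 8 and 12 in MTX and 10 in IgG, more than 97.4 to 99.3% of like-length genes. Chromosome 11 as a whole held 12.5 to 24.5% of a library's intervals, and Tex14 and Meioc lie on it too. The like-length genes set beside them came from all chromosomes. The intervals of Hormad2 covered 38.1 and 52.0% of its window in control, 31.9 and 60.5% in MTX and 37.6% in IgG, but the reads in them were close to background: the summed folds were 1.27 and 1.1 for the control libraries, 1.08 and 1.14 for MTX and 1.19 for IgG. Of its 44 KDM6A intervals, 33 overlapped IgG. At Hormad1 the control folds were 1.5 and 1.17, the MTX folds 1.15 and 1.20, and IgG had 1.45. Smc1b, a cohesin core subunit, had 6 intervals in control 1 but 1 in control 2, and 4 and 7 in MTX. Control folds at Smc1b were 1.33 and 1.57, MTX folds 1.39 and 1.31, and the IgG fold 1.52. Stag3, the cohesin subunit without an IgG interval, had control folds of 1.33 and 1.89 and MTX folds of 1.04 and 2.07. At Stag3 the libraries of a group differed more than the groups, with means of 1.61 ± 0.39 and 1.56 ± 0.73 (SD, n = 2).

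All 11 genes of DNA breaks, strand exchange and crossover had an interval in at least 1 KDM6A library, but only Dmc1 had one in all 4. How many like-length genes had one in at least 1 of the 4 libraries was not counted. Control 1 taken by itself had one at 58.7% of them. Dmc1, the meiotic strand-exchange recombinase, had 2 intervals in each KDM6A library and 4 in IgG, at control folds of 1.19 and 1.1, MTX folds of 1.23 and 1.14 and an IgG fold of 1.29. MTX 2 had an interval at 3 of the 11 genes (27.3%, beside 39.2% of like-length genes). Control 1, control 2 and MTX 1 had one at 8, 8 and 7 (72.7, 72.7 and 63.6%, beside 58.7, 32.3 and 41.3%). Prdm9, the histone methyltransferase that places recombination hotspots, had control folds of 1.33 and 1.86 and a fold of 2.86 in MTX 1 (96 against 36 reads, chr17:15560001-15562800), with none in MTX 2 or IgG. The intervals of control 1 and control 2 overlapped each other at Prdm9, and the MTX 1 interval lay elsewhere in the gene. Hfm1, a helicase of crossover formation, had 5, 2 and 3 intervals in control 1, control 2 and MTX 2, with folds of 1.78, 1.45 and 1.75, and none in MTX 1. IgG had 1 interval at Hfm1, with a fold of 1.33. Rnf212, a crossover factor, had folds of 3.31, 1.32 and 1.73 in control 1, control 2 and MTX 1, and 1.18 in IgG. Spo11, which makes the breaks, had a fold of 1.06 in control 2 and of 1.69 and 1.32 in the MTX libraries. Msh4 had control folds of 1.24 and 1.48, 0.90 in MTX 1 and its highest, 1.65, in IgG, while its partner Msh5 had 1 interval, in control 1 (fold 2.18). Zcwpw1, a reader of the marks that PRDM9 places, had folds of 1.82 (control 2), 1.22 (MTX 1) and 1.79 (IgG). Mei1 had 0.90 in control 1 and 2.15 in MTX 1, and Meiob 1.78 in control 2. Mlh3 had 0.98 in control 1, below its IgG fold of 1.33.

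In the piRNA pathway, 10 of 12 genes had an interval in at least 1 KDM6A library, again with no such count for like-length genes. Per library, the shares were 58.3% in control 1, 58.3% in control 2, 33.3% in MTX 1, 66.7% in MTX 2 and 41.7% in IgG, beside 64.7, 37.6, 46.8, 45.4 and 38.2% of like-length genes, so control 1 and MTX 1 were below them. Stk31, which encodes a protein with a Tudor and a kinase domain, had 8 and 4 intervals in control, 2 and 5 in MTX and 6 in IgG, and folds of 1.80 and 1.60, 1.81 and 1.27, and 1.54. Mael, a piRNA factor of germ granules, had control folds of 1.35 and 1.68, MTX folds of 1.65 and 1.54 and an IgG fold of 1.31. Ddx4, the Vasa RNA helicase, had no IgG interval in its window and 3 merged regions in the gene where control 1, control 2 and MTX 2 each had an interval. Its folds were 1.79, 1.19 and 1.44 in these libraries, and MTX 1 had no interval at Ddx4. Piwil2, a PIWI protein, had 1.60 and 1.48 in control, 1.24 in MTX 2 and 1.12 in IgG, and Piwil4 had 1.46 in control 2 alone. The steepest interval of Piwil2 (2.10, control 1) overlapped IgG. Tdrd5 had 1.29, 1.44 and 1.40 in control 1, control 2 and MTX 2 and 1.31 in IgG, which overlapped 3 of its 6 KDM6A intervals. Tdrd9 had 2.07, 1.24 and 1.20 in control 1, MTX 1 and MTX 2. Tdrd6 had the highest fold of any member interval, 4.90 in MTX 2 at chr17:43616401-43617600 (70 against 16 reads), and an interval of control 1 in the flank of the gene with 2.38. These did not overlap. Tdrd1 had a fold of 1.39 in control 2 and an IgG interval near background. Mov10l1, the helicase that feeds RNA into piRNA production, was the only member found in both MTX libraries and in no control library, a class that held 1.26% of all protein-coding genes. Its MTX 1 intervals were at chr15:88987801-88990600 (86 against 53 reads, fold 1.74) and at chr15:89055801-89062000 past its 3′ end (fold 1.24), and its MTX 2 interval at chr15:89001201-89004600 (113 against 82 reads, fold 1.54). The intervals of the MTX libraries did not overlap, so no site of Mov10l1 was shared by them. The converse class, both control libraries without MTX, held 0 members and 2.18% of all genes.

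Of the germ cell regulators, Tex15 and Tex14 had intervals in all 4 KDM6A libraries. Tex15, needed for break repair and transposon silencing in spermatocytes, had 7 and 5 intervals in control, 4 and 8 in MTX and 5 in IgG, and folds of 1.27 and 1.59, 1.45 and 1.35, and 1.48. Tex14, a protein of the bridges between germ cells and the longest member at 150.8 kb, had 3 and 1 intervals in control, 1 and 2 in MTX and 1 in IgG, no more than is usual for its length (4.03, 2.16, 2.34, 2.71 and 1.98 on average at like-length genes). Control folds at Tex14 were 1.27 and 1.08 and MTX folds 1.44 and 1.24, and IgG was the lowest at 0.89. Brdt, the testis bromodomain gene, had 1.79, 1.27 and 1.72 in control 1, control 2 and MTX 1 and no IgG interval. Meioc, needed to sustain meiosis, had 1.42 in control 1 and 2.08 and 1.30 in MTX, with 71 reads against 23 at chr11:102667601-102668800 in MTX 1 (fold 3.31). Dazl, an RNA-binding regulator of germ cell fate, and Stra8, which starts meiosis, had 1 interval each, both in control 1 (folds 1.53 and 1.76) and both at or beyond an edge of the gene span.

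**Figure D3:**
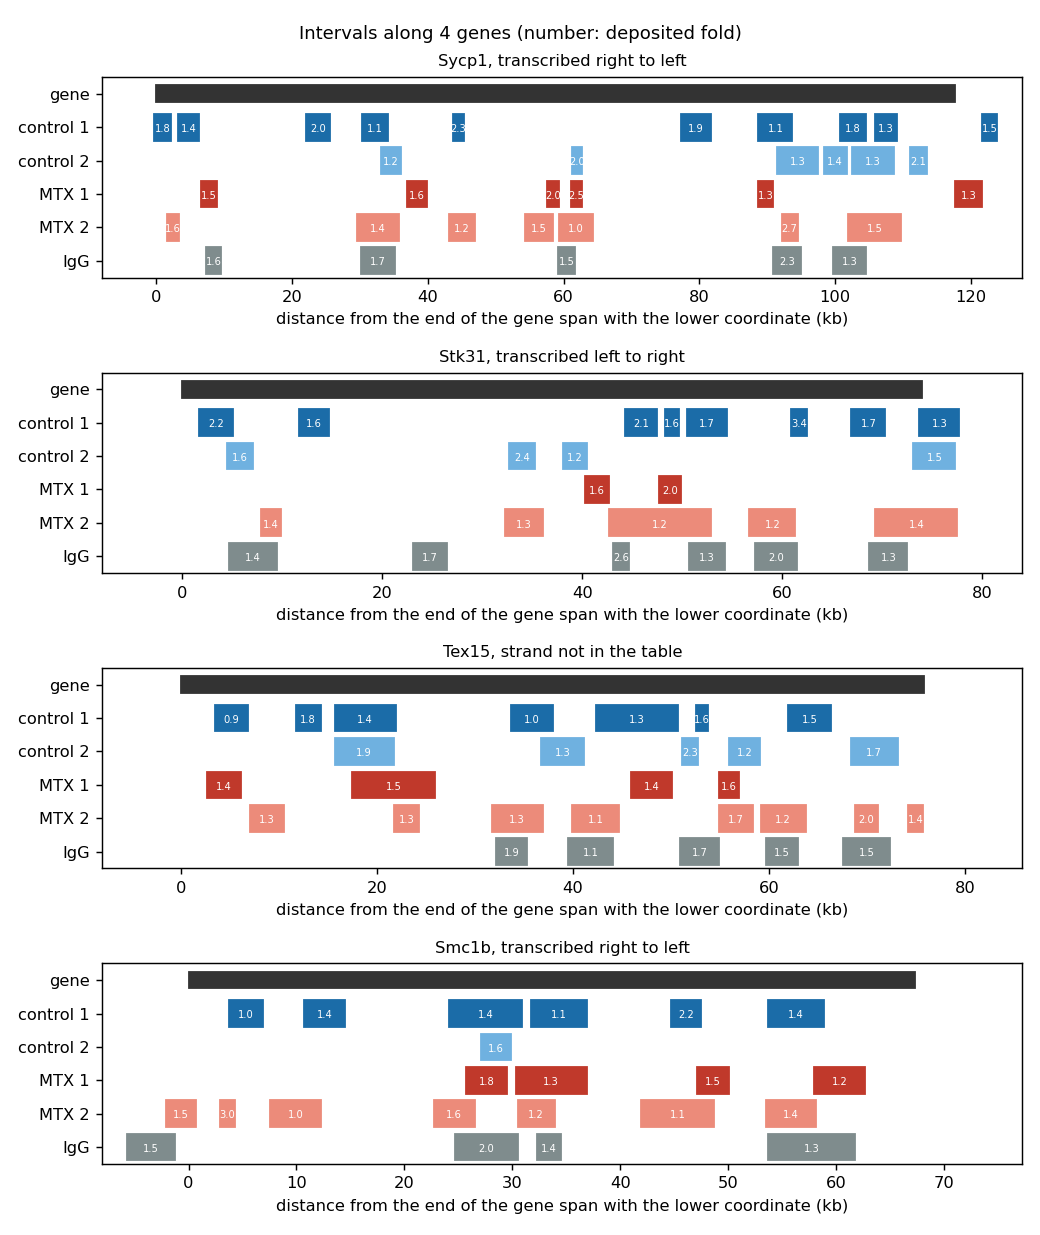
Intervals of the 5 libraries along Sycp1, Stk31, Tex15 and Smc1b, drawn to scale by distance from the end of the gene span with the lower coordinate (kb); the dark bar is the gene and the number in each box is the deposited fold. Boxes of different libraries coincide in parts of each gene and stand alone in others, and the IgG row has 4 to 6 boxes per gene.

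Most member intervals lay in a stretch shared with another KDM6A library, while most of the separate stretches were those of 1 library. When touching or overlapping intervals of the 4 KDM6A libraries were merged, the member windows held 144 regions. Of these, 82 (56.9%) had 1 library, 35 had 2, 15 had 3 and 12 (8.33%) had all 4, beside 75.8% and 2.59% for 1 and 4 libraries over the whole genome. The regions of 1 library held 82 of the 280 intervals, and the other 198 (70.7%) lay in regions of 2 or more. That share of intervals was not counted over the whole genome, and the shares of regions were not recounted without Hormad2. The 12 regions of all 4 libraries lay in 6 genes: 5 in Hormad2, 3 in Tex15 and 1 each in Sycp1, Sycp2, Smc1b and Stk31. Merged regions of 1 library were 800 to 7200 bp wide and those of all 4 were 8800 to 26600 bp. Overlap with IgG needed only 1 bp, and it was not counted at like width. The share that overlapped IgG rose with the number of libraries. It was 15 of 82 (18.3%) for 1 library, 10 of 35 (28.6%) for 2, 7 of 15 (46.7%) for 3 and 11 of 12 (91.7%) for 4, beside 10.9, 23.6, 42.1 and 75.1% over all regions. The exception was chr8:33532401-33542600 in Tex15, where control 1, control 2, MTX 1 and MTX 2 had folds of 1.39, 1.92, 1.49 and 1.26 and IgG had no interval. A merged region need not hold a base shared by all its libraries: there the interval of control 2 ended at 33538400, the base before that of MTX 2 began.

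**Figure D4:**
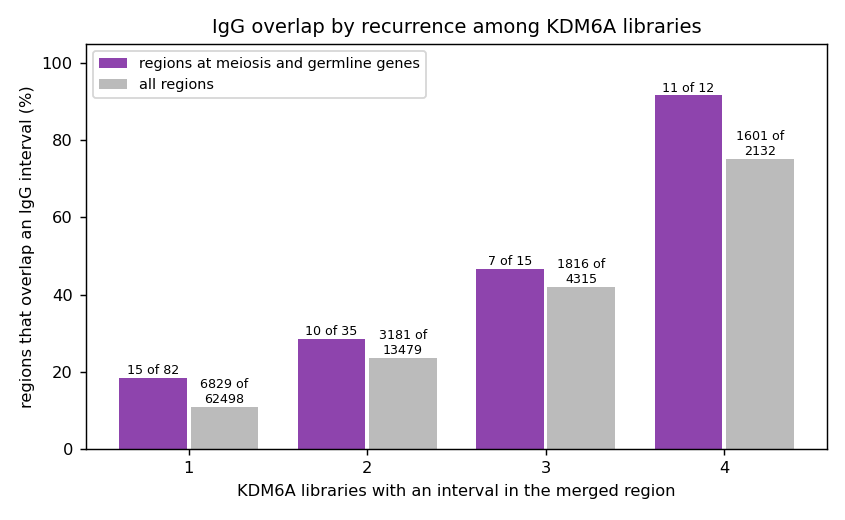
Share of merged KDM6A regions (%, vertical axis) that overlap an IgG interval, by the number of KDM6A libraries in the region (horizontal axis), for regions at meiosis and germline genes (dark bars) and all regions (grey bars), with the counts printed. Both sets of bars go up from 1 to 4 libraries, to 11 of 12 and 1601 of 2132 regions. The width of the regions was not matched.

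The steepest member intervals were narrower than the rest. A fold of at least 2 with a deposited adjusted p under 0.05 was found for 34 KDM6A intervals in 19 genes and for 3 IgG intervals, in Sycp1 and Stk31. Their median width was 1800 bp, beside 3600 bp for all member intervals, and none of the 34 lay over a promoter. How many intervals of other genes passed the same thresholds was not counted. By library the 34 were 16 in control 1, 5 in control 2, 6 in MTX 1 and 7 in MTX 2. Control 1 had the longest list and the largest constant in its folds (1.32). Its member intervals had a median width of 3200 bp, beside 4000 bp in control 2 and 3800 bp in each MTX library. Of the 34, 14 were in a region of 1 library, 10 of 2, 5 of 3 and 5 of 4, and 12 overlapped IgG. The highest after Tdrd6 and Tex12 were in Stk31 (3.38, 69 against 27 reads, control 1), Meioc, Rnf212 (3.31, 50 against 20 reads, control 1), Smc1b (3.02, 70 against 26 reads, MTX 2), Prdm9 and Hfm1 (2.77, 92 against 44 reads, control 1). In Sycp1, chr3:102907201-102916000 held an interval of each KDM6A library, the steepest of them 2.66 in MTX 2 (114 against 48 reads), and IgG had 2.29 there (141 against 64 reads). The MTX 1 interval of that region did not overlap IgG.

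The comparison of MTX with control cells asks whether the fold within the called intervals of these genes differed between the groups, and no member passed the test. Reads could be compared at the 2888 gene windows with an interval in all 4 KDM6A libraries, among them the 11 members. edgeR's quasi-likelihood test, with the background reads of the same intervals as an offset, at an adjusted p threshold of 0.05 called no gene, 0% higher and 0% lower. An unadjusted p of 0.05 was passed by 100 genes, 0 of them members. limma and DESeq2 also called 0, with 135 and 120 genes under the unadjusted threshold. Sycp2 was among those of DESeq2 (unadjusted p = 0.0496, adjusted p = 0.979). Of the members, 5 had a value above 0 and 6 below it, with a median log2 change of -0.00043, beside 0.0018 over all genes tested. Sycp2 had the highest member value, 0.31 on the log2 scale (SE 0.16, edgeR adjusted p = 0.962), which was -0.22 when the background reads were left out of the fit, followed by Tex14 at 0.23 (SE 0.24). Stk31 was the lowest at -0.16 (SE 0.17). The standard errors ran from 0.09 at Hormad2 to 0.36 at Stag3, and differences well above that size could also be missed. In simulated data for the 2888 windows, 1.5-fold changes were recovered at 31.8% of the genes raised and 25% of those lowered. Changes of 2-fold were recovered at 98.1 and 89.8%. The absence of called genes therefore says little about changes of 1.5-fold or less. The simulation gave every gene the same spread (dispersion 0.017), whereas the real standard errors differed between genes. Recovery at a gene of wide spread such as Stag3 was not simulated, and 2-fold changes there could also be missed. Genes without an interval in some library have no count there and were not tested, so absence of an interval, as at Ddx4 or Hfm1 in MTX 1, was not compared as a level.

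**Figure D5:**
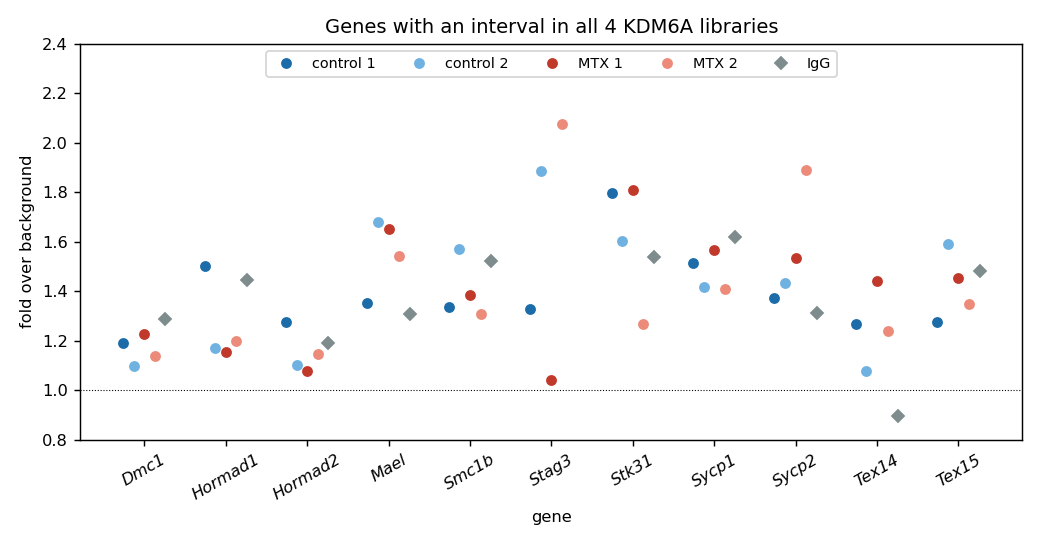
Fold of immunoprecipitated over background reads, summed over the intervals of a gene (vertical axis), for the 11 genes with an interval in all 4 KDM6A libraries (horizontal axis); each point is 1 library and diamonds are IgG. The control and MTX points overlap at 10 genes and lie apart at Sycp2 (1.37 and 1.43 against 1.53 and 1.89), and Stag3 has no IgG point.

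A list of 46 further meiosis and germline genes was counted in the same way, with no test. An interval was present at 28, 22, 23 and 23 of them in control 1, control 2, MTX 1 and MTX 2 and at 24 in IgG, or 60.9, 47.8, 50, 50 and 52.2%, where like-length genes had 53.0, 30.0, 38.2, 35.5 and 31.3%. The gap to like-length genes was widest in IgG. All 4 KDM6A libraries had an interval at 11 of the 46, beside 13.2% of all protein-coding genes, and IgG had one at each of these 11. The like-length share was not counted for this class, nor how many of all genes in it had an IgG interval. Henmt1, the methyltransferase that modifies the ends of piRNAs, had intervals in both control libraries alone (folds 1.92 and 1.05), and Majin and Dppa3 in both MTX libraries alone (1.85 and 1.46, and 2.06 and 1.44). Among 23 repressors of germline genes, 9, 5, 11 and 9 had an interval and 8 had one in IgG. These were 39.1, 21.7, 47.8, 39.1 and 34.8%, beside 55.1, 30.1, 38.6, 35.9 and 30.8% of like-length genes, below them in both control libraries and above in the other 3. Mga, the DNA-binding subunit of the Polycomb complex named above, was the 1 with intervals in all 4 libraries (folds 1.09 to 1.36, and 1.19 in IgG). Rnf2 and Pcgf6, which encode subunits of that complex, were in the class of Mov10l1, with folds of 1.90 and 1.27 at Rnf2, where IgG had 1.47, and 1.26 and 1.14 at Pcgf6. Mga and the 11 germline genes, which could be tested, did not pass edgeR's test of MTX against control (adjusted p = 0.962 to 0.990).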

How the data were processed

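KDM6A and IgG ChIP-seq interval lists of Sv129 embryonic stem cells were used, 1 per library. The submitters' processing notes name Bowtie2 and mm10; the version and the interval caller are not given in the sources used here. Amplification took 30 cycles, per the labels' protocols. Each deposited count is a whole number of immunoprecipitated or background reads in an interval, not normalized. The deposited fold is their ratio times 1 constant per library (1.04 to 1.32), and the deposited p-value and adjusted p-value are the authors' values per interval. Intervals lay on a 200 bp grid, were called per library, and were not filtered. Reads within intervals numbered 3251202 (MTX 1) to 4192029 (MTX 2) per library; full depth is unknown. Coordinates are counted from 1.

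Genes came from RefSeq GRCm38.p6. Reads were summed per gene window and tested with edgeR 4.0.16 (R 4.3.3; quasi-likelihood, Benjamini-Hochberg over 2888 genes), with limma 3.58.1 and DESeq2 1.42.0 as alternatives, checked on simulated data. Standard errors are the log2 change over the square root of F. Overlap meant at least 1 bp. Members and lists were chosen with earlier results of these data known. Folds or read counts per library were given for members in all 4 KDM6A libraries, in both libraries of 1 group alone, or with an interval of fold at least 2 and adjusted p under 0.05. Read counts were given for only some of their intervals. Further genes were named after their values were seen.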

Additional observations from a re-analysis of the deposited data

How the results depend on the processing

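The counts of members with an interval depended on how an interval was tied to a gene. With windows of 1 kb around gene ends in place of whole genes, 13 and 5 members had one in control 1 and 2, 8 and 9 in MTX 1 and 2 and 2 in IgG, and 0 members had one in all 4 KDM6A libraries. Beside like-length genes these were 32.5 against 23.6%, 12.5 against 8.54%, 20 against 15.7%, 22.5 against 10.6% and, in IgG, 5.0 against 11.8%, so the gap in control 2 was 3.96 points. With gene ends the exact interval contained the like-length share in control 2 (4.19 to 26.8%) and lay above it in MTX 2 (10.8 to 38.5%). Over whole genes the lower bound lay above that share in control 1 without flanks (53.47 against 53.35%). Control 1 lay above it at an adjusted p under 0.05 (56.1 against 52.9%) and without IgG overlaps (56.1 against 55.8%). With like length within a factor of 1.5 it had 58.8 against 58.5%. MTX 2 lay above it at an adjusted p under 0.05 (36.1 against 34.7%). MTX 1 lay above it at a fold of at least 1.5 (22.73 against 20.02%). At the other whole-gene settings control 2 alone did. At a fold of at least 1.5, MTX 2 had 13 members, IgG 10 and all 4 libraries 4. In the better 50% of each list, control 1 had 19, IgG 10 and all 4 libraries 6, and in lists of equal length control 1 had 19 and all 4 libraries 7. Over whole genes the member share stayed above the like-length share under the 9 alternatives tried for that difference (8 in IgG) and moved by less than counting error, although without intervals that overlap IgG the gap in MTX 1 went from 12.8 to 7.0 points. Members in both control libraries alone numbered 3 without flanks, 2 without intervals that overlap IgG, and 1 with gene ends, midpoints, an adjusted p under 0.05, a fold of at least 1.5, the better 50% or lists of equal length. Those in both MTX libraries alone numbered 2 at an adjusted p under 0.05 and in the better 50%. With 1 library left out, control-only members numbered 3 to 6, MTX-only members 1 to 3 and those in all remaining libraries 12 to 16, a looser condition.

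In the test of MTX against control, the fit with a replicate block called 2 genes and the fits without 1 library 0 to 2 (2 without control 2), none of them members. The other alternatives called 0. The replicate numbers name libraries of a group and nothing says that they pair them: deviations from the group means correlated at 0.03 over 2888 genes. The sign of the member changes was not stable, and 23 of 118 refitted values had the opposite sign, at 9 of 11 genes. With no background offset, values turned to 0.030 (Hormad2), -0.83 (Mael), 0.86 (Smc1b), -0.12 (Sycp1), -0.22 (Sycp2), -0.30 (Tex14) and 0.064 (Tex15). Without intervals that overlap IgG they turned to 0.010 (Hormad2), 0.051 (Stk31), -0.37 (Sycp1) and 0.037 (Tex15). Tex15 was also at 0.0098 and 0.012 with limma at pseudocounts of 0.5 and 5 and at 0.0073 with the replicate block. With 1 library left out in turn, values crossed 0 at Mael (-0.10 to 0.33), Smc1b (-0.24 to 0.10), Stag3 (-0.57 to 0.41), Stk31 (-0.39 to 0.13), Sycp1 (-0.024 to 0.14) and Tex15 (-0.21 to 0.23). Unadjusted p was under 0.05 for Sycp2 with the replicate block (edgeR, 0.0498) and, without MTX 1, for Sycp2 (0.032) and Stk31 (0.030). No member had an adjusted p under 0.05 in any of these fits, and the cause of the sign changes was not tested.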
